A study of Homo sapiens with 10 samples.

Results

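The genes described here encode enzymes and core subunits that write, copy, erase or extend 2 repressive marks on chromatin, methylation of cytosine in DNA and methylation of histone H3 by Polycomb repressive complex 2 (PRC2). They are *DNMT1*, *UHRF1*, *DNMT3A*, *DNMT3B*, *TET1*, *TET2*, *TET3*, *EZH2*, *SUZ12* and *EED*. They were chosen by name and not by any measured value, though with earlier results of these data known. All 10 were found in both tables, as 10 of 13029 genes in the *ZMAT3* experiment and 10 of 17642 in the siRNA experiment.

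RNA-seq was performed on HCT116, a human colorectal cancer cell line, in 10 libraries. ZMAT3 is an RNA-binding protein whose gene is activated by the tumour suppressor p53, and the study asked which RNAs depend on each. In the first experiment 3 *ZMAT3*-WT and 3 *ZMAT3*-KO cultures were compared. Both were isogenic HCT116 cells, and the knockout was made with Cas9 and a pair of guides on either side of the p53 response element in an intron of *ZMAT3*. The methods describe selection with puromycin, and the knockout work rested on a single *ZMAT3*-KO clone. The p-values of this comparison therefore measure how cultures of 1 clone vary and say nothing of how clones vary. The labels of these libraries also carry the abbreviations EV and unt, which the sources used here do not explain. In the second experiment HCT116 cells received control siRNAs (siCTRL) or the siRNA pool labelled sip53 for 72 h, with 2 libraries each, and nothing in the labels says whether these were separate cultures.

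DNMT3A and DNMT3B place methyl groups on cytosines that carried none, while DNMT1, guided by UHRF1, copies the existing pattern onto the new DNA strand behind the replication fork. The TET enzymes oxidise methylcytosine, which starts its removal. In PRC2, EZH2 is the catalytic subunit that methylates lysine 27 of histone H3, SUZ12 holds the complex together and EED binds the finished mark. Both systems are needed to keep developmental genes silent, and both are often disturbed in colorectal cancer.

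The *ZMAT3* libraries were compared as deposited log2 CPM and the siRNA libraries as FPKM, a level per length of transcript. *ZMAT3* itself lay between 5.00 and 5.26 log2 CPM in *ZMAT3*-WT and between 2.20 and 2.34 in *ZMAT3*-KO libraries. The p53 target *CDKN1A*, which encodes the cell cycle inhibitor p21, fell by 3.80 on the log2 scale with sip53 and by 0.53 in *ZMAT3*-KO cells. The lowest correlation between libraries of a group, across genes, which are not independent replicates, was 0.995 in the *ZMAT3* and 0.958 in the siRNA experiment. The *ZMAT3* libraries all carry 1 distribution of values and no depth, so their depth is unknown. The deposited mean normalized signal of the siRNA table summed to 30841445 over all genes, of which *TET1* held 181 and *DNMT1* 6278. Of the epithelial markers, *EPCAM*, *CDH1*, *KRT8*, *KRT18*, *KRT19* and *CLDN4* were listed in both tables, while *VIL1* was at 0.13 to 0.22 FPKM in the siRNA table. Of 7 blood and endothelial markers none was listed in the *ZMAT3* table, and the 2 in the siRNA table, *CD14* and *VWF*, summed to 0.08 to 0.26 FPKM. *COL1A1* was the only 1 of 6 fibroblast markers listed, at 4.08 to 7.06 FPKM in the siRNA libraries.

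The start sites of these genes were read from the RefSeq promoter table (GRCh38.p14), which gives 300 bases around each annotated start, 250 before and 50 after. All 10 genes matched, with 22 start windows. The copying of methylation is tied to replication, so 3 spellings of the motif of the E2F factors, which drive S phase genes, were searched on both strands: TTTGGCGC, TTTCCCGC and TTTCGCGC. At least 1 was found in 5 of the 22 windows, from 4 of the 10 genes, against 2.74% of the 35116 windows in the table. The 5 stretches of 30 bases are shown because they come from the maintenance pair *DNMT1* and *UHRF1*, whose RNA is described beside that of S phase genes in the results, and from the PRC2 genes *EZH2* and *SUZ12*. None of the 3 spellings occurred in the windows of the other 6 genes. For *DNMT1*, *UHRF1*, *DNMT3B* and *EED* no window reached the upstream end of the gene span given below, so sequence there was not searched. Capitals mark the motif. In the first *UHRF1* line and in the *DNMT1* line they spell it on the opposite strand.
DNMT1, chr19:10194937-10194966, minus strand: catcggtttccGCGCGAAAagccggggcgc
UHRF1, chr19:4909476-4909505, plus strand: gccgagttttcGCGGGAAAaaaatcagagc
UHRF1, chr19:4909973-4910002, plus strand: cccgagcccgaTTTCGCGCgccctgagttc
EZH2, chr7:148884272-148884301, minus strand: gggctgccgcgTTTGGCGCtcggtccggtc
SUZ12, chr17:31936807-31936836, plus strand: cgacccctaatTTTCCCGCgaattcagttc

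The motif began 2 bases before the start in the *DNMT1* window and 1 base after it in the *EZH2* window. In the 2 *UHRF1* windows that held it, it began 14 and 160 bases before the start, and in the *SUZ12* window 189 bases before it. The p53 decamer, the 10-base element that p53 binds in pairs, occurred in 6.63% of all windows and in 0 of the 22 of these genes. The cell cycle homology region TTTGAA occurred in 15.2% of all windows and in windows of 3 of the genes, *DNMT3A*, *TET2* and *SUZ12*. CG dinucleotides, the sites of the DNA methyltransferases, ranged from 3 in the window of *DNMT3B* to 46 in windows of *DNMT3A*, *EZH2* and *UHRF1*. The *DNMT3B* window (chr20:32779602-32779901) lay inside the gene span, away from its upstream end. The median was 14 over all windows. All 3 spellings of the E2F motif contain a CG, and the 5 windows with a match held 30 to 46 CG. The share of all windows with a match, 2.74%, was not matched for CG content. These letter matches are descriptions of sequence, and binding was not measured.

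In *ZMAT3*-KO cells the maintenance pair *DNMT1* and *UHRF1* and the PRC2 subunit *EED* fell, while *TET2* and the de novo methyltransferases *DNMT3A* and *DNMT3B* rose. Every one of these changes was small, at most 1.26-fold. In limma (two-sided, Benjamini-Hochberg adjustment over all genes) 0 of the 10 met both thresholds, an adjusted p of 0.05 with a change of 1.5-fold, which 8.96% of all genes did, 4.6% upwards and 4.37% downwards, while 7 of the 10 had an unadjusted p under 0.05, as 63.2% of all genes did. At an adjusted p of 0.05 without the fold threshold 3 rose and 3 fell, beside 28.7% of all genes higher and 30.1% lower. The 6 of 10 are thus close to the share of all genes, 58.8%. The groups did not overlap for 6 genes, 3 higher and 3 lower, where 64.2% of all genes were apart, 31.3% higher and 32.9% lower. The median size of the log2 fold change, regardless of sign, was 0.18 over the 10 genes and 0.17 over all genes.

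**Figure D1:**
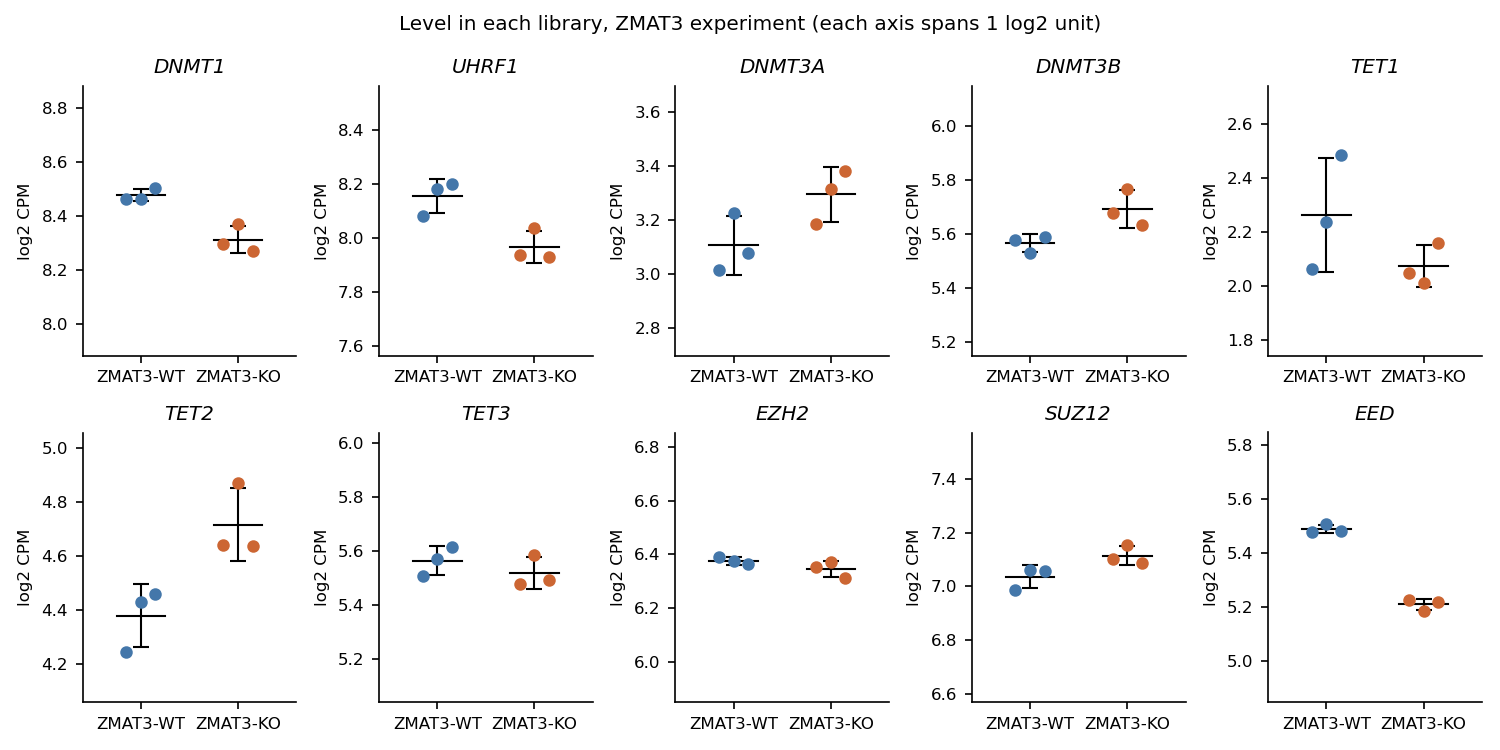
Level of each gene in log2 CPM (vertical axis, spanning 1 log2 unit in every panel) in the 3 *ZMAT3*-WT and 3 *ZMAT3*-KO libraries. Points are libraries, long bars the mean and short bars 1 SD. *DNMT1*, *UHRF1* and *EED* lie lower in every *ZMAT3*-KO library, and *DNMT3B*, *TET2* and *SUZ12* higher.

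*DNMT1* (chr19:10133342-10231286, minus strand, hg38) had levels of 8.46, 8.46 and 8.50 log2 CPM in *ZMAT3*-WT and 8.30, 8.37 and 8.27 in *ZMAT3*-KO libraries. All 3 knockout libraries lay below all wild-type libraries. The log2 fold change was -0.16 (standard error, SE, 0.030, limma adjusted p = 0.000503), a 1.12-fold decrease. In bulk RNA fewer cells with the transcript and less of it per cell cannot be told apart, here and for every gene that follows.

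*UHRF1* (chr19:4903080-4962154, plus strand), which reads hemimethylated DNA and recruits DNMT1 to it, had levels of 8.08, 8.18 and 8.20 log2 CPM in *ZMAT3*-WT and 7.94, 8.04 and 7.93 in *ZMAT3*-KO libraries. The groups were again apart, with the highest knockout library just under the lowest wild-type library. The decrease was 1.14-fold (log2 fold change -0.19, SE 0.038, limma adjusted p = 0.000963). The log2 difference between *DNMT1* and *UHRF1* within a library does not move with a factor common to all genes of that library. Any effect on it of the 1 distribution of values that these libraries share was not tested. The difference was 0.32 ± 0.05 in *ZMAT3*-WT libraries and 0.34 ± 0.01 in *ZMAT3*-KO libraries (SD, n = 3 each), and these ranges overlapped. The paralogue *UHRF2* was not shown to change (log2 fold change 0.03, limma adjusted p = 0.532), and the difference between *UHRF1* and *UHRF2* went from 3.67 ± 0.05 to 3.45 ± 0.08 (SD, n = 3) with no overlap.

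Some of the genes that mark S phase also fell. Of 24, 12 fell and 0 rose at an adjusted p of 0.05 in limma, beside 30.1% of all genes lower and 28.7% higher. An unadjusted p under 0.05 in the upward direction, found for 4014 of all 13029 genes, was found for 1 of the 24. Their summed level was 5495 to 5558 CPM in *ZMAT3*-WT and 5092 to 5175 CPM in *ZMAT3*-KO libraries, and their median log2 fold change was -0.07. No gene of the list reached a 1.5-fold change. The other 12 did not pass, *RRM2* among them (log2 fold change -0.03). The part of the S phase genes' change in that of *DNMT1* and *UHRF1* was not tested.

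*DNMT3A* (chr2:25227855-25342590, minus strand) had levels of 3.02, 3.23 and 3.08 log2 CPM in *ZMAT3*-WT and 3.19, 3.32 and 3.38 in *ZMAT3*-KO libraries. The groups overlapped by 1 library of each. The increase of 1.14-fold (log2 fold change 0.19, SE 0.074, limma adjusted p = 0.0432) was just past the threshold. It was lost without the library *ZMAT3*-WT 1 (log2 fold change 0.14, adjusted p = 0.141), *ZMAT3*-WT 3 (0.17, 0.106), *ZMAT3*-KO 2 (0.18, 0.104) or *ZMAT3*-KO 3 (0.14, 0.157).

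*DNMT3B* (chr20:32762385-32809359, plus strand) had levels of 5.58, 5.53 and 5.59 log2 CPM in *ZMAT3*-WT and 5.68, 5.77 and 5.63 in *ZMAT3*-KO libraries. Every knockout library lay above every wild-type library, by little. The increase was 1.09-fold (log2 fold change 0.13, SE 0.040, limma adjusted p = 0.0164), and it was lost without *ZMAT3*-WT 2 (log2 fold change 0.11, adjusted p = 0.0682) or *ZMAT3*-KO 2 (0.09, 0.0684). The difference between *DNMT3B* and *DNMT3A* within a library was 2.46 ± 0.14 and 2.40 ± 0.13 (SD, n = 3) on the log2 scale, with overlap.

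*TET2* (chr4:105145875-105279816, plus strand), an enzyme often inactivated in blood cancers, changed most among the 10 genes in this experiment. Its levels were 4.24, 4.43 and 4.46 log2 CPM in *ZMAT3*-WT and 4.64, 4.87 and 4.64 in *ZMAT3*-KO libraries, and the groups were apart. It rose 1.26-fold (log2 fold change 0.34, SE 0.070, limma adjusted p = 0.00119), and 11.5% of all genes had a higher log2 fold change.

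*TET3* (chr2:73984910-74108176, plus strand) had levels of 5.51, 5.57 and 5.61 log2 CPM in *ZMAT3*-WT and 5.48, 5.58 and 5.49 in *ZMAT3*-KO libraries, which overlapped. Its log2 fold change was -0.05 (95% interval -0.14 to 0.04, limma adjusted p = 0.36). The difference between *TET2* and *TET3* within a library went from -1.19 ± 0.07 to -0.80 ± 0.08 (SD, n = 3) on the log2 scale, with no overlap.

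*TET1* (chr10:68560337-68694487, plus strand) had levels of 2.06, 2.24 and 2.48 log2 CPM in *ZMAT3*-WT and 2.05, 2.01 and 2.16 in *ZMAT3*-KO libraries. The wild-type libraries spread more widely than the knockout ones, and the groups overlapped at *ZMAT3*-WT 1. The log2 fold change was -0.19 (95% interval -0.42 to 0.04, limma adjusted p = 0.145), and it moved with single libraries. Without *ZMAT3*-WT 1 it was -0.29 (adjusted p = 0.0319) and without *ZMAT3*-WT 3 it was -0.077 (adjusted p = 0.549).

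The transcripts of the 3 core subunits of PRC2 did not move together. *EED* (chr11:86201212-86278813, plus strand) had levels of 5.48, 5.51 and 5.48 log2 CPM in *ZMAT3*-WT and 5.23, 5.19 and 5.22 in *ZMAT3*-KO libraries. The knockout libraries lay lower with a gap many times the spread within either group. It fell 1.21-fold (log2 fold change -0.28, SE 0.034, limma adjusted p = 1.88e-05), the smallest adjusted p of the 10 genes. One exon of its canonical transcript lies within the span of an antisense non-coding RNA, ENSG00000288809. These libraries were stranded, and whether the counting used the strand is not given in the sources used here.

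*EZH2* (chr7:148807257-148884321, minus strand) had levels of 6.39, 6.38 and 6.36 log2 CPM in *ZMAT3*-WT and 6.35, 6.37 and 6.31 in *ZMAT3*-KO libraries. These overlapped, and the log2 fold change was -0.03 (95% interval -0.10 to 0.04, limma adjusted p = 0.402). Its paralogue *EZH1*, the other catalytic subunit, had a log2 fold change of -0.01 (limma adjusted p = 0.947).

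*SUZ12* (chr17:31937007-32001038, plus strand) had levels of 6.99, 7.06 and 7.06 log2 CPM in *ZMAT3*-WT and 7.10, 7.15 and 7.09 in *ZMAT3*-KO libraries. All knockout libraries were higher, and the log2 fold change of 0.08 (95% interval 0.01 to 0.15) had a limma adjusted p of 0.0512, just outside the threshold. Its partial copy *SUZ12P1* was listed at 1.63 to 1.86 log2 CPM in *ZMAT3*-WT and 1.95 to 2.10 in *ZMAT3*-KO libraries, far below *SUZ12* itself, and reads of shared sequence may have been split between them.

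Measured within each library, some differences between PRC2 transcripts did not overlap between the groups. The log2 difference between *EZH2* and *EED* was 0.91, 0.87 and 0.88 in *ZMAT3*-WT and 1.12, 1.19 and 1.10 in *ZMAT3*-KO libraries. Relative to *EZH2*, every knockout library thus held less *EED* than any wild-type library. The difference between *EZH2* and *SUZ12* went from -0.66 ± 0.05 to -0.77 ± 0.01 (SD, n = 3), also apart, and that between *EZH2* and *EZH1* overlapped. These differences were described and not tested.

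With sip53 the TET enzyme genes *TET3* and *TET2* fell 1.98-fold and 1.61-fold, by an unadjusted test, and no other gene of the 10 was called. Of the 10 genes 2 were lower and 0 higher at an unadjusted limma p of 0.05, beside 9.28% of all 14274 genes tested that were lower and 5.86% that were higher, 15.1% in all. At an adjusted p of 0.05 in limma 0 of the 10 were called, where 0.273% of all genes were, 0.035% higher and 0.238% lower, so the 2 calls rest on unadjusted p-values. The 2 groups did not overlap for 5 genes, 2 higher and 3 lower, beside 46.4% of all genes, 20.1% apart and higher and 26.3% apart and lower. The median size of the log2 fold change was 0.27 over the 10 genes and 0.28 over all genes tested. Fold changes are on the log2(FPKM + 0.1) scale, which understates those of genes with a low level such as *TET1*.

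**Figure D2:**
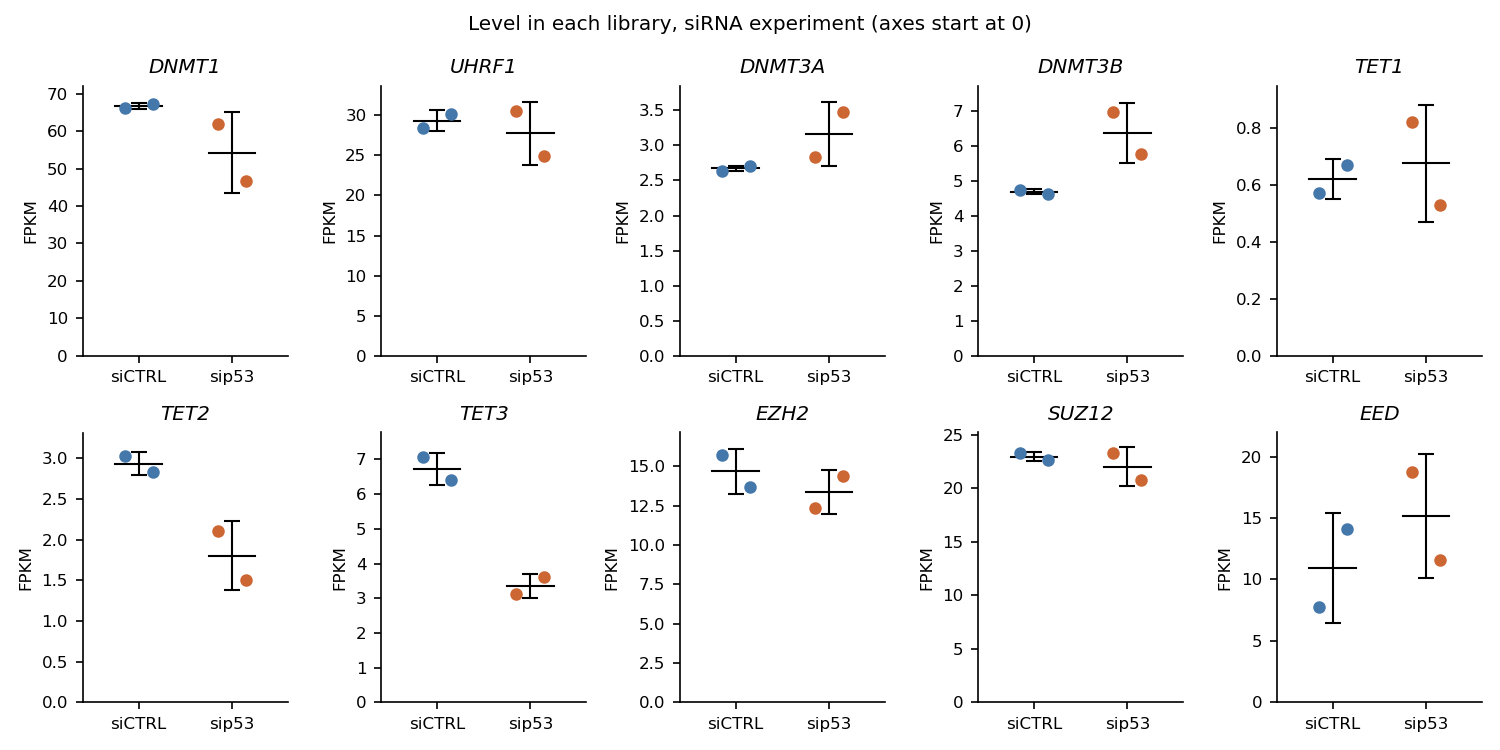
Level of each gene in FPKM (vertical axis, starting at 0) in the 2 siCTRL and 2 sip53 libraries. Points are libraries, long bars the mean and short bars 1 SD. *TET2* and *TET3* lie lower in both sip53 libraries, and the *EED* libraries spread more widely within each group than the groups differ.

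*TET3* had levels of 7.06 and 6.41 FPKM with siCTRL, against 3.12 and 3.60 FPKM with sip53. Both sip53 libraries lay far below both controls, and 49.9% of the siCTRL mean was left. The log2 fold change was -0.98 (SE 0.202, limma adjusted p = 0.148). It passed the unadjusted threshold in all 12 other settings tried. In the annotation 2 exons of its canonical transcript lie within the span of a non-coding RNA on the same strand, ENSG00000235499, so reads there could belong to either.

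*TET2* had levels of 3.03 and 2.83 FPKM with siCTRL, against 2.10 and 1.5 FPKM with sip53. Both sip53 libraries were lower, and they lay further from each other than the controls did. The log2 fold change was -0.69 (SE 0.271, limma adjusted p = 0.324). The call at an unadjusted p was lost without siCTRL 1, where the log2 fold change was -0.64, without siCTRL 2 (-0.74) and without sip53 2 (-0.46).

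*TET1* had levels of 0.57 and 0.67 FPKM with siCTRL, against 0.82 and 0.53 FPKM with sip53, where the 2 sip53 libraries lay on either side of the controls. Its log2 fold change of 0.08 had a 95% interval of -0.99 to 1.15 (limma adjusted p = 0.949), too wide to show or exclude a 2-fold increase. Added together the 3 TET transcripts came to 10.7 and 9.91 FPKM with siCTRL, against 6.04 and 5.63 FPKM with sip53, and 56.7% of the control mean was left. The log2 difference between *TET1* and *TET3* within a library went from -3.42 and -3.08 to -1.81 and -2.55, with no overlap, while that between *TET2* and *TET3* overlapped.

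*DNMT1* had levels of 66.1 and 67.2 FPKM with siCTRL, against 61.9 and 46.7 FPKM with sip53. Both sip53 libraries were lower, but most of the difference came from sip53 2. The log2 fold change was -0.31 (95% interval -0.84 to 0.22, limma adjusted p = 0.542). *UHRF1* had levels of 28.4 and 30.2 FPKM with siCTRL, against 30.5 and 24.9 FPKM with sip53, and its groups overlapped, with a log2 fold change of -0.09 (95% interval -0.57 to 0.40, limma adjusted p = 0.875). The ratio of *DNMT1* to *UHRF1* within a library was 2.22 to 2.33 with siCTRL and 1.87 to 2.03 with sip53, apart between the groups. Of the S phase genes 2 of 24, *RRM2* and *CCNE2*, were lower and 0 higher at an unadjusted limma p of 0.05. Of all genes tested 9.28% were lower and 5.86% higher. The 24 summed to 1486 to 1495 FPKM with siCTRL, against 1315 to 1318 FPKM with sip53. Most of that drop lay in *RRM2* (mean 219 to 130 FPKM) and *PCNA* (267 to 195), of which *PCNA* was not called. Of the 24 genes 15 had a negative and 9 a positive log2 fold change, beside 7721 and 6553 of all genes tested.

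*DNMT3A* had levels of 2.64 and 2.7 FPKM with siCTRL, against 2.84 and 3.48 FPKM with sip53. *DNMT3B* had levels of 4.75 and 4.64 FPKM with siCTRL, against 6.97 and 5.76 FPKM with sip53. For both genes each sip53 library was above each control, though the sip53 libraries spread more widely. The log2 fold changes were 0.23 (95% interval -0.35 to 0.81, limma adjusted p = 0.7) for *DNMT3A* and 0.42 (95% interval -0.08 to 0.93, limma adjusted p = 0.396) for *DNMT3B*. The value for *DNMT3A* was 0.37 without sip53 1 and 0.086 without sip53 2. The 3 DNA methyltransferase transcripts, added together, kept 86.2% of the control mean, and *DNMT1* made up most of that sum.

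*EED* had levels of 7.78 and 14.1 FPKM with siCTRL, against 18.7 and 11.6 FPKM with sip53. The libraries of either group lay further apart than the means of the groups, and the log2 fold change of 0.49 had a 95% interval of -0.45 to 1.43 (limma adjusted p = 0.594). Whether the reads of the siRNA libraries were counted by strand is not given in the sources used here, so *EED* cannot be told apart there from its antisense neighbour.

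*EZH2* had levels of 15.7 and 13.7 FPKM with siCTRL, against 12.4 and 14.4 FPKM with sip53, which overlapped. Its log2 fold change was -0.13 (95% interval -0.61 to 0.34, limma adjusted p = 0.798). *SUZ12* had levels of 23.3 and 22.7 FPKM with siCTRL, against 23.3 and 20.7 FPKM with sip53, with overlap and a log2 fold change of -0.06 (95% interval -0.50 to 0.38, limma adjusted p = 0.905). The 3 core PRC2 transcripts summed to 46.8 and 50.4 FPKM with siCTRL, against 54.4 and 46.7 FPKM with sip53. A change of the sum was not detectable beyond the spread of these libraries.

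Because FPKM is a level per length, the siRNA libraries also rank the genes against each other. With siCTRL the order of mean levels was *DNMT1* (66.6 FPKM), *UHRF1* (29.3), *SUZ12* (23.0), *EZH2* (14.7), *EED* (10.9), *TET3* (6.74), *DNMT3B* (4.70), *TET2* (2.93), *DNMT3A* (2.67) and *TET1* (0.62). Among neighbours in this order only *EZH2* and *EED* overlapped between the 2 siCTRL libraries. The maintenance enzyme thus stood far above the de novo enzymes, and the TET enzymes occupied the lower end with them. With sip53 *DNMT3B* (6.37 FPKM) came before *TET3* (3.36), *DNMT3A* (3.16) before *TET2* (1.80), and *EED* (15.2) before *EZH2* (13.4).

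**Figure D3:**
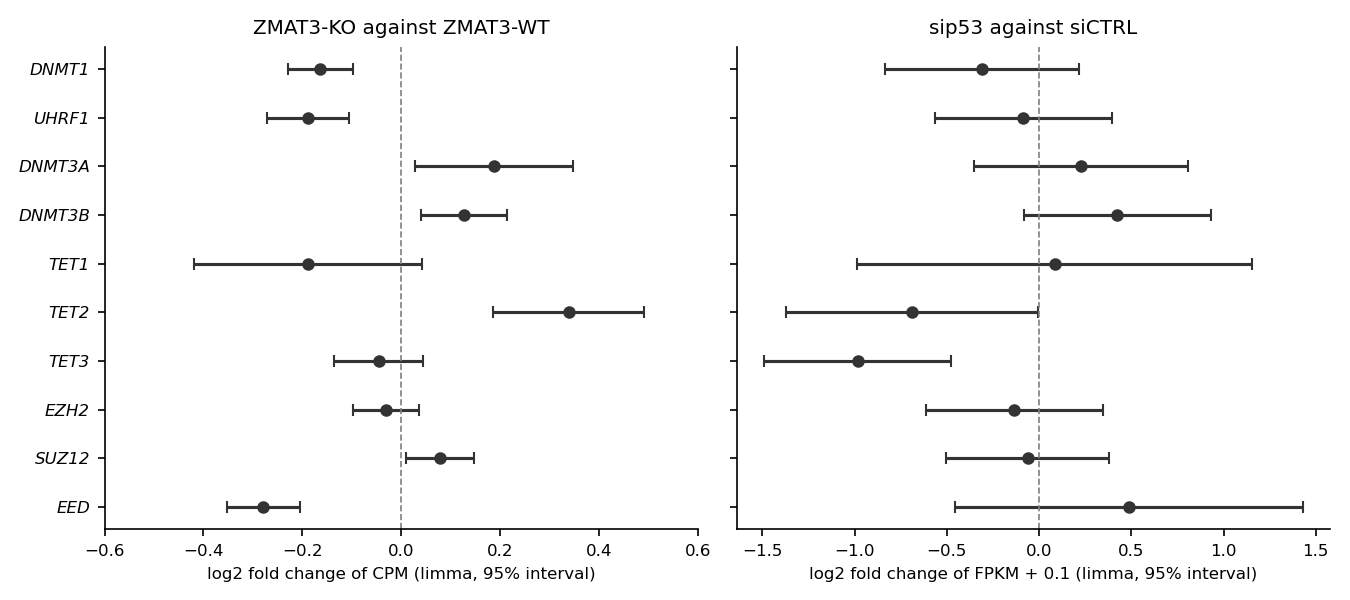
Log2 fold change of each gene (horizontal axis, limma) with its 95% interval, for *ZMAT3*-KO against *ZMAT3*-WT on the left and sip53 against siCTRL on the right, on separate scales. The intervals on the right are several times wider. Those of *TET2* lie on opposite sides of 0 in the 2 experiments, the right one ending at -0.008 (limma adjusted p = 0.324).

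The experiments share no library, so the log2 fold changes can be set side by side, though they were normalized separately and the differences between them were not tested. *ZMAT3* itself had -2.89 in *ZMAT3*-KO cells, beside -2.31 with sip53. *TET2* had a log2 fold change of 0.34 in *ZMAT3*-KO cells but -0.69 with sip53, and *TET3*, which fell by 0.98 with sip53, had -0.05 in *ZMAT3*-KO cells. *EED* had -0.28 in *ZMAT3*-KO cells but 0.49 with sip53, the latter with an interval that reaches far below 0. *DNMT1* had -0.16 and -0.31, *UHRF1* -0.19 and -0.09, *DNMT3A* 0.19 and 0.23, and *DNMT3B* 0.13 and 0.42. For these 4 only the values in *ZMAT3*-KO cells passed a test.

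Changes of the other subunits of PRC2 were also small in *ZMAT3*-KO cells. Of 10 partners and accessory subunits 4 rose and 4 fell at an adjusted p of 0.05 in limma, beside 28.7% and 30.1% of all genes. With the 1.5-fold threshold 0 passed, while 8 had an unadjusted p under 0.05 (63.2% of all genes). Their log2 fold changes lay between -0.25 and 0.30. With sip53 1 of 9 tested was higher at an unadjusted limma p of 0.05 (5.86% of all genes), *PHF19*, a Tudor-domain subunit that helps PRC2 reach its targets. Its levels were 25.5 and 33.4 FPKM with siCTRL, against 43.9 and 41.1 FPKM with sip53 (log2 fold change 0.54, limma adjusted p = 0.313).

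PRC1, the sister complex that ubiquitinates histone H2A, was covered by 23 genes, all tested in both experiments. In *ZMAT3*-KO cells 11 rose and 7 fell at an adjusted p of 0.05 in limma, beside 28.7% and 30.1% of all genes, and 1 passed with the fold threshold, beside 8.96%. This was *CBX7*, a chromodomain subunit that binds the PRC2 mark, at 3.08, 3.02 and 3.05 log2 CPM in *ZMAT3*-WT and 2.42, 2.34 and 2.13 in *ZMAT3*-KO libraries. The groups were far apart, and the log2 fold change was -0.75 (SE 0.082, limma adjusted p = 7.03e-06). With sip53 *CBX7* had a log2 fold change of -0.17 (limma adjusted p = 0.73). There, beside 5.86% of all genes higher and 9.28% lower at an unadjusted p, 1 gene of the list was higher, *PCGF1*, a subunit of variant PRC1 (log2 fold change 0.56, limma adjusted p = 0.255), and 1 was lower, *CBX6*, at 40.5 and 59.5 FPKM with siCTRL, against 25.2 and 22.4 FPKM with sip53 (log2 fold change -1.04, limma adjusted p = 0.172).

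Of 6 genes for enzymes that take Polycomb marks off histones and their partners, 4 rose and 0 fell at an adjusted p of 0.05 in *ZMAT3*-KO cells. Of all genes 28.7% rose and 30.1% fell by this rule, 58.8% in either direction. With the 1.5-fold threshold in limma 0 passed, while the same number, 4, had an unadjusted p under 0.05 (63.2% of all genes). With sip53 1 of 6 was lower (9.28% of all genes), *KDM6B*, a demethylase of the PRC2 mark, at 17.2 and 12.9 FPKM with siCTRL, against 7.55 and 10.9 FPKM with sip53 (log2 fold change -0.71, limma adjusted p = 0.306). In *ZMAT3*-KO cells *KDM6B* had a log2 fold change of 0.48 (limma adjusted p = 1.49e-06), opposite in sign as for *TET2*, and the difference between experiments was not tested.

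Among 15 partners and readers of DNA methylation tested in *ZMAT3*-KO cells, 2 rose and 3 fell at an adjusted p of 0.05, where 58.8% of all genes passed. With the 1.5-fold threshold in limma 0 passed, while 6 had an unadjusted p under 0.05 (63.2% of all genes). With sip53 3 of 15 were lower and 0 higher at an unadjusted limma p of 0.05, beside 9.28% and 5.86% of all genes. The largest decrease was in *TDG*, the glycosylase that cuts out the bases that TET enzymes oxidise furthest, with levels of 24.7 and 18.0 FPKM with siCTRL, against 7.21 and 9.04 FPKM with sip53. Both sip53 libraries were well under the lower control, and the log2 fold change was -1.37 (SE 0.240, limma adjusted p = 0.116). The other 2 were the methyl-CpG binding factors *ZBTB38* (log2 fold change -0.58, limma adjusted p = 0.281) and *ZBTB33* (log2 fold change -0.51, limma adjusted p = 0.281).

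Of 13 genes that supply the methyl donor or the cosubstrate of TET enzymes, or clear an inhibitor of them, 5 rose and 4 fell at an adjusted p of 0.05 in *ZMAT3*-KO cells, beside 28.7% and 30.1% of all genes. None passed with the 1.5-fold threshold in limma, while 10 had an unadjusted p under 0.05 (63.2% of all genes). With sip53 0 of the 13 passed an unadjusted limma p of 0.05, where 15.1% of all genes tested did. The median log2 fold change of the 13 was -0.18, beside -0.04 over all genes tested.

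**Figure D4:**
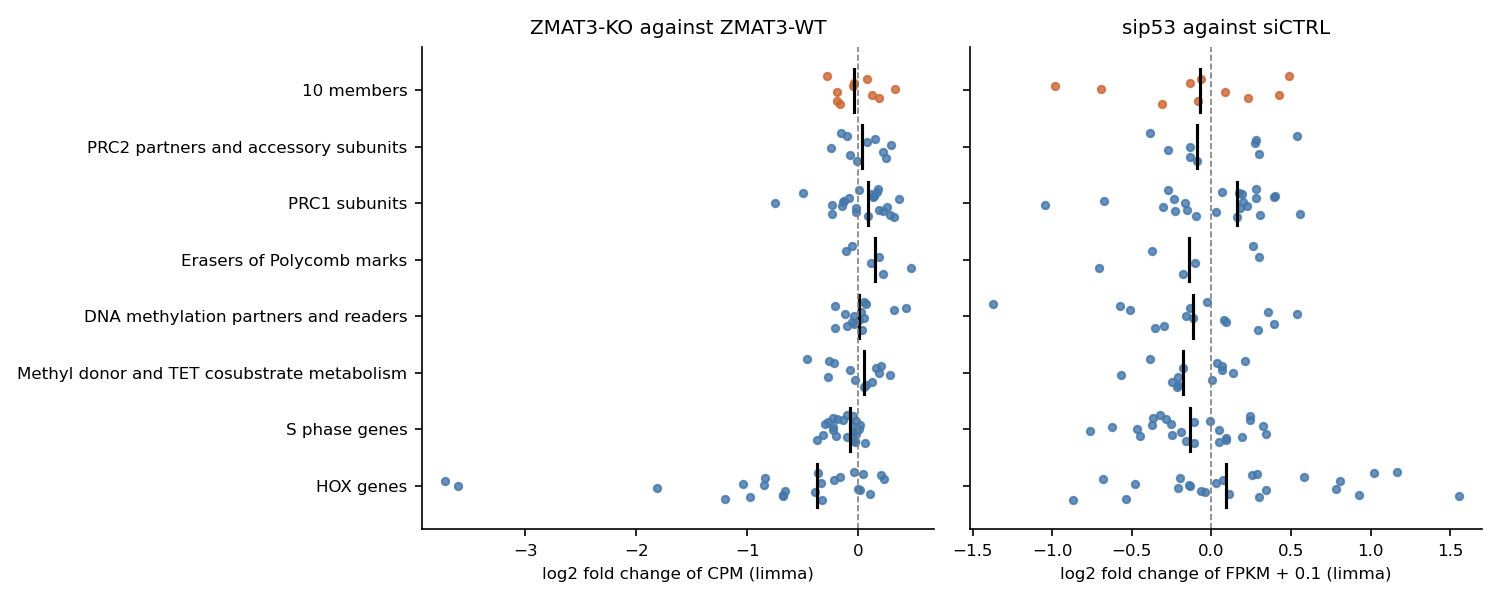
Log2 fold change (horizontal axis, limma) of each tested gene in the 10 named genes and in 7 related lists, for *ZMAT3*-KO against *ZMAT3*-WT on the left and sip53 against siCTRL on the right. Points are genes and vertical bars the median of each list. The HOX genes spread furthest in both, from -3.72 to 0.23 on the left and from -0.87 to 1.55 on the right.

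HOX genes, which set positional identity and are classic targets of Polycomb silencing, covered a wider range of log2 fold changes than the 10 genes in both experiments. In *ZMAT3*-KO cells 11 of the 24 listed fell and 0 rose at an adjusted p of 0.05 and 1.5-fold in limma. Of all genes 4.37% were lower and 4.6% higher by this rule. An unadjusted p under 0.05 in the upward direction was found for 3 of the 24, beside 4014 of all 13029 genes. The list's median log2 fold change was -0.37, beside -0.01 over all genes. *HOXB8* went from 4.25, 4.17 and 4.17 log2 CPM in *ZMAT3*-WT to 0.46, 0.55 and 0.41 in *ZMAT3*-KO libraries, a log2 fold change of -3.72. *HOXB4* fell by 3.61 and *HOXB3* by 1.81 on the log2 scale. *HOXB4* lies within the annotated span of *HOXB3* and *HOXB8* within that of *HOXB7*, on the same strand, and their reads may not be fully separable.

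With sip53 6 of 24 HOX genes tested were higher and 2 lower at an unadjusted limma p of 0.05, beside 5.86% and 9.28% of all genes, and 0 passed an adjusted p. The largest increases were in *HOXA5*, *HOXD8* and *HOXC13*, with log2 fold changes of 1.55, 1.17 and 1.02, and the decreases were in *HOXB13* and *HOXB6*, at -0.68 and -0.48. *HOXB8* was at 23.2 and 20.3 FPKM with siCTRL, against 34.2 and 42.4 FPKM with sip53 (log2 fold change 0.81, limma adjusted p = 0.184), opposite in sign to its change in *ZMAT3*-KO cells. Differences between the experiments were not tested, and neither was the part of the enzymes in those of the HOX genes.

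Cancer-germline genes, which are commonly silenced by DNA methylation in body tissues, were mostly outside the tables. Of 28, 3 were listed in *ZMAT3*-KO and *ZMAT3*-WT cells and 4 in the siRNA libraries. In *ZMAT3*-KO cells 1 of the 3 fell at an adjusted p of 0.05, beside 30.1% of all genes. This was *MAGEA3*, named after its values were seen, with a log2 fold change of -0.18 (limma adjusted p = 8.07e-05). Its sequence is close to that of *MAGEA6*, so reads could have been shared. With sip53 0 of 4 passed an unadjusted limma p of 0.05, beside 15.1% of all genes tested. All 4 had a log2 fold change below 0, as did 7721 of the 14274 genes tested.

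Of 6 epithelial markers tested in the *ZMAT3* experiment 3 fell at an adjusted p of 0.05 and 1.5-fold in limma, all of them keratins. Of all genes 4.37% did so. In *ZMAT3*-KO cells *KRT8*, *KRT18* and *KRT19* fell by 0.94, 0.82 and 1.75 on the log2 scale, while *EPCAM*, *CDH1* and *CLDN4* had log2 fold changes of 0.01, 0.05 and 0.03 and did not pass. The summed level of the 6 listed markers, most of it keratin, was 5819 to 6151 CPM in *ZMAT3*-WT and 3225 to 3314 CPM in *ZMAT3*-KO libraries. In the siRNA libraries the 7 markers summed to 3854 to 4151 FPKM with siCTRL, against 3706 to 4292 FPKM with sip53. There 1 of the 6 tested, *EPCAM*, was higher at an unadjusted p (log2 fold change 0.60), beside 5.86% of all genes. The part of the keratin shift in the changes of the methylation and Polycomb genes was not tested.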

How the data were processed

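RNA was sequenced from 3 *ZMAT3*-WT, 3 *ZMAT3*-KO, 2 siCTRL and 2 sip53 libraries of HCT116 cells, grouped by their labels. In the *ZMAT3* experiment poly(A) RNA was made into stranded libraries, and the authors used Cutadapt for trimming, STAR for alignment (hg38) and RSEM for quantification. The deposited values are log2 CPM, with 1 distribution of values shared by the 6 libraries, beside fold changes and p-values of their own comparison, which were not used. The siRNA table deposited by the authors holds values read as FPKM, a mean normalized signal per gene, which was printed as a sum and for 2 genes, and a log2 fold change, a test score and p-values of their own, which were not used. The submitters' processing notes name CASAVA 1.8.2, FastQC 0.11.2 and TopHat2 2.0.8, and the builds hg19 and hg38, without tying them to an experiment. No counts were used, so no count model was fitted.

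Each experiment was fitted alone, over all its genes, with limma 3.58.1 in R 4.3.3 (lmFit, then eBayes with trended prior variance; two-sided tests, adjusted after Benjamini and Hochberg), without covariates. The *ZMAT3* libraries were fitted on log2 CPM unfiltered. The siRNA values entered as log2(FPKM + 0.1) for the 14274 genes whose mean reached 0.5 FPKM. A gene was called at an adjusted p of 0.05 with a 1.5-fold change, or, for sip53, at 0.05 without adjustment. Exact permutation of 3 against 3 libraries cannot give a p below 0.1, nor 2 against 2 one below 0.333, so the spread was shared across genes. The fits were tested on simulated data. All 10 genes were named, with up to 3 called genes in each direction from each of 12 lists of 191 genes. One gene of these lists, and the list that holds it, are not reported here. The genes and lists were chosen with earlier results of these data known. *UHRF1* is listed in the siRNA table under an older identifier, ENSG00000034063. Positions are from GENCODE release 44 on hg38. Tables and figures were made with Python 3.11.15, pandas 2.3.3 and matplotlib 3.10.9. Alternatives were other scalings, pseudocounts and filters, an untrended variance, a block for the replicate number, and each library left out.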

Additional observations from a re-analysis of the deposited data

How the results depend on the processing

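In the *ZMAT3* experiment 99 of 110 alternative values of the 10 genes kept direction and side of the adjusted p threshold. The 1.5-fold threshold was not applied in this count. By the adjusted p alone 8 no longer passed and 3 newly passed, and 0 turned. Dropping the 1.5-fold threshold gave 3 genes higher and 3 lower. Of the 3 higher genes 1 was left without a variance trend, and 1 to 3 with each library left out in turn. In the siRNA experiment 101 of 117 values were kept, 7 lost a call, 4 gained one and 5 turned. With each library left out in turn *UHRF1* ran from -0.23 to 0.059 (positive without sip53 2), *TET1* from -0.19 to 0.36 (negative without sip53 1 and, at -0.016, without siCTRL 1) and *SUZ12* from -0.15 to 0.021 (positive without sip53 2). *SUZ12* was at 0.013 when libraries were centred on their median gene. The 2 lower genes became 1 with centring, with the replicate block, with no filter, with a filter at 5 FPKM, where *TET2* was not tested, and with FPKM rescaled to a common sum, 1 to 2 with each library left out, and 0 at an adjusted p. Centring made 1 gene, *DNMT3B*, higher. Over all genes 836 were higher and 1325 lower at an unadjusted p, against 1120 and 1048 with centring, 610 and 1496 with rescaling, and 434 and 650 with the replicate block. Libraries with the same number did not deviate together, with correlations of -0.0387, -0.0218 and -0.093 in the *ZMAT3* and -0.616 in the siRNA experiment, so the numbers were not taken as pairs. With the replicate block *SUZ12* passed in the *ZMAT3* experiment (0.08, limma adjusted p = 0.0296) and *TET2* was lost in the siRNA experiment (-0.69, limma adjusted p = 0.811). The crossed pairing, siCTRL 1 with sip53 2, called 2 of the 10 genes higher and 3 lower at an unadjusted p, and 1 and 1 at an adjusted p, beside 2410 higher and 3128 lower (unadjusted) and 3642 called (adjusted) of all 14274 genes. The crossed pairing and the rescaling were chosen after seeing the data. The causes of these shifts were not tested. The siRNA intervals exclude only large changes, and no depth is known for the *ZMAT3* libraries.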
